A study of Homo sapiens with 4 samples.

Results

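Protocadherins are the largest group of cadherin-related adhesion proteins on the cell surface, and 62 of the 20457 features in the expression tables were protocadherin genes. They were taken by symbol, as PCDHA, PCDHB, PCDHGA, PCDHGB or PCDH followed by a number, with the C-type alpha genes PCDHAC1 and PCDHAC2. The letters matched 66 symbols, from which the pseudogenes PCDHB19P and PCDHGB8P and the older pseudogene symbols PCDHB17 and PCDHB18 were left out. The members were 50 clustered genes, of which 15 were alpha, 16 beta and 19 gamma, and 12 non-clustered genes. The symbols PCDHGC3, PCDHGC4 and PCDHGC5 belong to the gamma cluster but do not match these letters, and they are given beside the members where the cluster is counted as a whole.

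The libraries came from HEK293, a long-established human cell line that goes back to embryonic kidney, transfected with 10 nM siRNA and collected after 72 h. The control group of 2 libraries, siControl, received a negative control siRNA and is labelled wild type, and the knockdown group of 2 libraries, siCNOT4, received siRNA against CNOT4, which encodes a RING-type E3 ubiquitin ligase associated with the CCR4-NOT deadenylase complex. The study asked what CNOT4 does in the dependence of expression on codon usage. The labels do not say whether the replicates were separate cultures, so p-values measure the spread between these libraries only.

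Clustered protocadherins lie in 3 neighbouring gene arrays on chromosome 5. In the alpha and gamma arrays each gene has its own first exon, with its own promoter, spliced to a set of constant exons that encode a common cytoplasmic tail, whereas each beta gene is a separate unit without a constant tail. Neurons express different combinations of them, and matching combinations on touching membranes bind each other and let a neuron tell its own branches from those of others. Promoter choice in the clusters depends on CTCF, cohesin and DNA methylation, and most clustered promoters hold a conserved sequence element with CGCT at its centre. Non-clustered protocadherins, which include the delta genes, are scattered over several chromosomes and act in adhesion, cell sorting and axon growth.

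The tables hold TPM values, levels per transcript length that sum to 1000000 in each library. From the steps between low TPM values the underlying whole reads could be recovered for all 20457 features, up to a whole-number factor for each gene, and summed to at least 23072362 and 20831369 reads in siControl replicates 1 and 2 and to 24952506 and 24835178 reads in siCNOT4 replicates 1 and 2. CNOT4 itself was at 6.43 and 4.73 TPM in siControl and at 3.38 and 3.81 TPM in siCNOT4. The knockdown libraries did not overlap with the controls and were lower, as they were for 10.6% of all features tested, but the log2 change of -0.51 (SE 0.26) did not pass the test (limma adjusted p = 0.184). It passed with scaling by trimmed mean of M values (TMM; limma adjusted p = 0.0329). It also passed at -1.15 with quantile normalization (0.0252) and -0.77 with a trend in length and GC removed (0.0483). With limma voom on recovered reads it passed at -0.97 (0.0352). It did not pass with a pseudocount of 0.1 (limma adjusted p = 0.203) or without a filter on low values (0.22). Nor did it pass with the replicate number as a block (limma adjusted p = 0.355). The CNOT4 change was -0.32 and -0.70 without siControl replicates 1 and 2. Without siCNOT4 replicates 1 and 2 it was -0.44 and -0.57. The median log2 fold change over all 14208 features tested was 0.50, so that changes on this scale are read against 0.50 as well as against 0. The siControl libraries differed from each other by a median of 0.38 over all features tested, with replicate 1 higher. Of the HEK293 markers, NEFL, NEFM, INA, KRT8, KRT18, VIM and PAX2, all 7 were above 0 TPM, and their sum was 1812 and 1556 TPM in siControl against 1284 and 1293 TPM in siCNOT4.

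The constant exons decide what the alpha and gamma values can show. In the GENCODE 29 annotation of GRCh38, which is not the build the authors aligned to, all 15 alpha genes contain the same 2866 exonic bases in 3 blocks, between positions 140978949 and 141012344 of chromosome 5, which make up 18.8% to 53.5% of each gene's exonic bases. The 22 gamma genes, with PCDHGC3, PCDHGC4 and PCDHGC5, share 2181 bases in 3 blocks between 141494807 and 141512979, or 25.2% to 45.9% of each gene. The 16 beta genes share no exonic base. The last 120 coding bases, printed here because a read from them fits every gene of its cluster, are in the last constant exon of each cluster (chr5:141009818-141009937, plus strand for alpha and chr5:141511054-141511173, plus strand for gamma, GRCh38, stop codon in capitals).
Alpha cluster: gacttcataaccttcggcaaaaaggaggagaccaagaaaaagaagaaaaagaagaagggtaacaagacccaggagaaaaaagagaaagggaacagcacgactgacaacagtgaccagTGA
Gamma cluster: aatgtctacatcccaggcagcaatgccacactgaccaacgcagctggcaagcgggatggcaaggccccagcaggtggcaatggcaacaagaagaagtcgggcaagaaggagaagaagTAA

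The part of each gene that is its own begins at its promoter. RefSeq promoter windows of 300 bases (GRCh38.p14, 250 bases before to 50 after each start) were found for 55 of the 62 members, in 61 windows, and none was found for PCDHA3, PCDHA13, PCDHB6, PCDHB11, PCDHGA12, PCDH10 and PCDH20. The 4 letters CGCT, searched on both strands and therefore also as AGCG, with overlapping matches such as AGCGCT counted on each strand, were in 12 of 13 alpha windows, 14 of 14 beta windows, 22 of 22 gamma windows and 10 of 12 non-clustered windows. The same letters were in 70.0% of all 35116 windows, so a match describes the sequence and is no evidence of a bound site. The 250 bases before the start are printed in the direction of transcription for genes named in the results, with matches in capitals. They are PCDHA9 (chr5:140848132-140848381, plus strand), whose reads were almost all shared, PCDHA10 (chr5:140855647-140855896, plus strand) and PCDHAC2 (chr5:140966226-140966475, plus strand), which had the most alpha reads of their own, PCDHB2 (chr5:141094365-141094614, plus strand), the most abundant beta gene, PCDHGB5 (chr5:141397697-141397946, plus strand), the gamma gene with the highest mean level among the members, and PCDH19 (chrX:100410274-100410523, minus strand), the member with the largest ratio of means among those above 0 in every library.
PCDHA9: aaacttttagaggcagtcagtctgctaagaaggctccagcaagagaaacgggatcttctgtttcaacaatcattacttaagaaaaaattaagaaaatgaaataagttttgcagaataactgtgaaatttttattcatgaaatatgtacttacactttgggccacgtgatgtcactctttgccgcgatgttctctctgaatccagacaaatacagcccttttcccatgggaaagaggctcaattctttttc
PCDHA10: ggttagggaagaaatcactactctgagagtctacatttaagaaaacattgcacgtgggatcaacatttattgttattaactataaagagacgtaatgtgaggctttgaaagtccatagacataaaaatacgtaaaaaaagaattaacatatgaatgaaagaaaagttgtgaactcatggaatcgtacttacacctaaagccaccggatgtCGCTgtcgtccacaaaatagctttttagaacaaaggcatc
PCDHAC2: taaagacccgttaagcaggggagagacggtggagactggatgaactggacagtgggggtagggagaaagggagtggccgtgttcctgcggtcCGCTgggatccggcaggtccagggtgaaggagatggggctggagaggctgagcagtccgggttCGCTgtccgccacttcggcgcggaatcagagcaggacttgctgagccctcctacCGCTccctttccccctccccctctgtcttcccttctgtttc
PCDHB2: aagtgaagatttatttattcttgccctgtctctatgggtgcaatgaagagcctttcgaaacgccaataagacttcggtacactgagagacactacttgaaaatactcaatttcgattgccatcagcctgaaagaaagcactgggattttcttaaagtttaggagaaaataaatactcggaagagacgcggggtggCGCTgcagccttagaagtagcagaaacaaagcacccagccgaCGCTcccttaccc
PCDHGB5: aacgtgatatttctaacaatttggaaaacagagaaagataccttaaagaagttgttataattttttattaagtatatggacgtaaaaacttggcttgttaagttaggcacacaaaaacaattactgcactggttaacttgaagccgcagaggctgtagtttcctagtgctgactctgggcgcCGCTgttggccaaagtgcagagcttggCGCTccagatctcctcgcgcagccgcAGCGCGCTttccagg
PCDH19: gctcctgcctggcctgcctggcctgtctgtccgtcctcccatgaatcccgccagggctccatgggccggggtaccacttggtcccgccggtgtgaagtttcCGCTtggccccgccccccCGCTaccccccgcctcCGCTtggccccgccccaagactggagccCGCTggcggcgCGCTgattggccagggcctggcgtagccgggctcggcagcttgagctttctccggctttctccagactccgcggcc

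PCDHAC2 has 3 matches in these letters, PCDHGB5 has 4, PCDHB2 has 2 and PCDH19 has 5, whereas PCDHA10 has 1 and PCDHA9 has 0.

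Detection differed by class. All 15 alpha and all 19 gamma genes were above 0 TPM in every library, although reads in the constant exons alone would give this for every gene of those clusters. Of the 16 beta genes, 14 and 9 were above 0 in siControl replicates 1 and 2, and 14 and 16 in siCNOT4 replicates 1 and 2. Of the 12 non-clustered genes, 11 were above 0 in the first 3 libraries and 12 in siCNOT4 replicate 2. Over all 62 members, 59 and 54 were detected in siControl and 59 and 62 in siCNOT4, so the detected number was the same in the first replicate of each group. A level of at least 1 TPM was reached by 43, 40, 43 and 43 members in siControl replicates 1 and 2 and siCNOT4 replicates 1 and 2.

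Members that were not found in every library had few reads in the libraries that did show them. In all, 54 members were above 0 in all 4 libraries, and 3 were above 0 in siCNOT4 libraries only. PCDHB1 had 2 reads and PCDH12, a non-clustered gene typical of endothelium, had 1 read, both in siCNOT4 replicate 2 alone. PCDHB7 had 3 reads and 1 read in the siCNOT4 libraries and 0 in both siControl libraries. A count of 0 allows up to 3 reads, which for the beta genes were worth 0.0481 to 0.0914 TPM in siControl replicate 1, 0.0423 to 0.0805 in siControl replicate 2, 0.0505 to 0.0959 in siCNOT4 replicate 1 and 0.0511 to 0.0971 in siCNOT4 replicate 2. None of the 3 genes was therefore measurably absent from siControl. These floors cover counting error only. In the whole series 17661 and 17531 features were above 0 in siControl and 18667 and 18629 in siCNOT4.

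**Figure D1:**
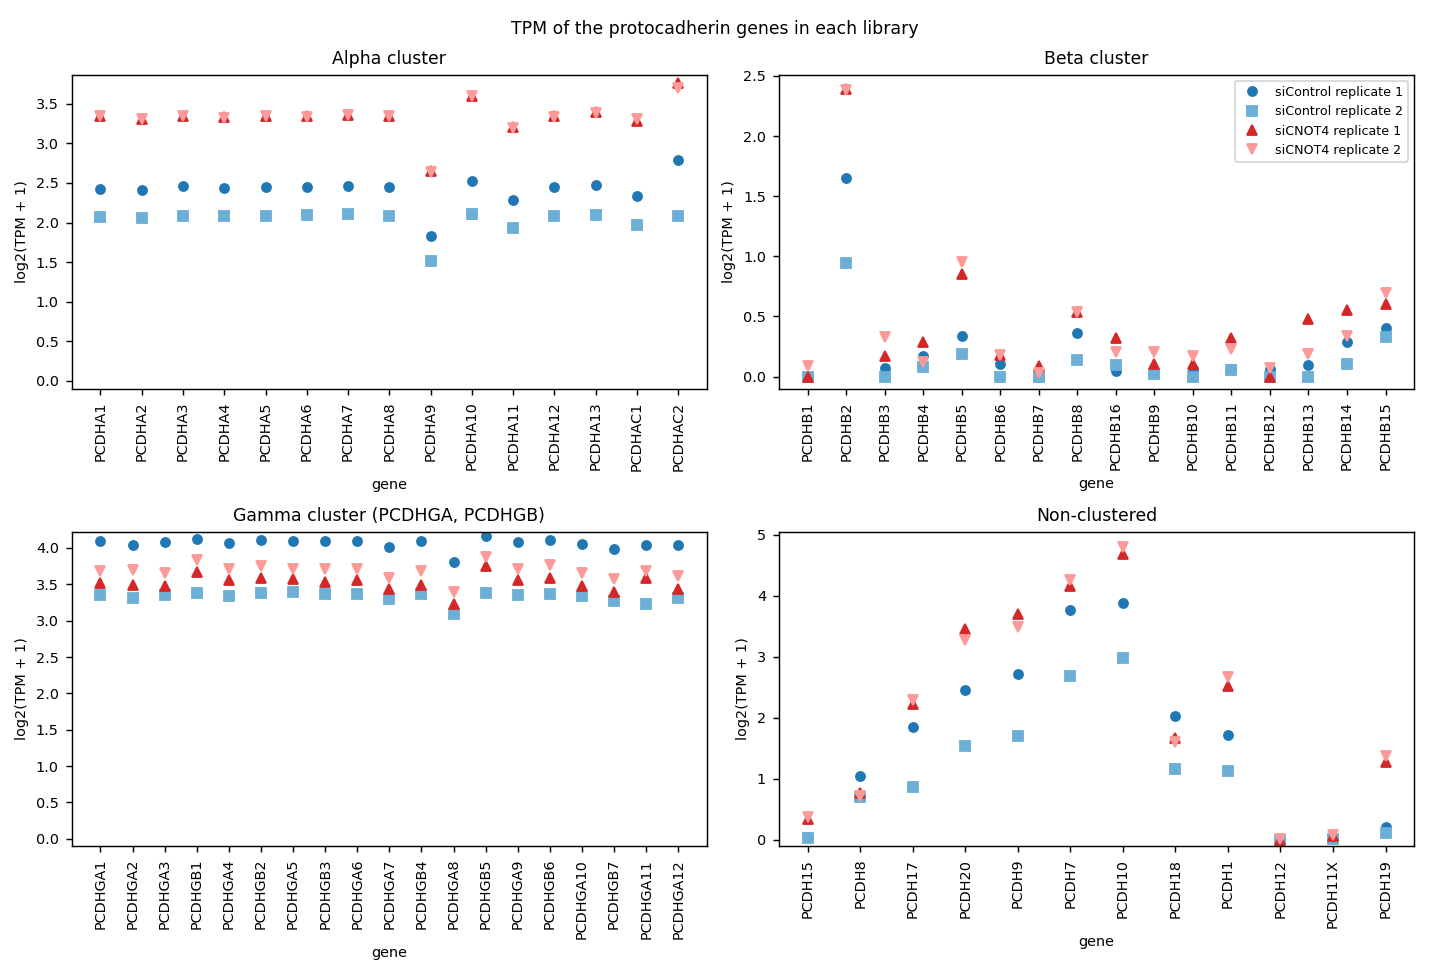
Level of each protocadherin, as log2(TPM + 1) on the vertical axis, in each of the 4 libraries (circles and squares siControl replicates 1 and 2, upward and downward triangles siCNOT4 replicates 1 and 2), with the genes of each class along the horizontal axis. The alpha genes sit at nearly the same height within a library, with both siCNOT4 libraries above both siControl libraries, the gamma genes of siCNOT4 lie between the siControl libraries, and PCDH19 is near 0 in siControl.

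Alpha genes were higher after CNOT4 siRNA, and 4 of the 15 passed the test. The summed TPM of the 15 genes was 65.7 and 46.5 in siControl against 137.9 and 136.8 in siCNOT4. Log2 fold changes ran from 0.97 to 1.29 around a median of 1.08, which is 0.58 above the median of all features. PCDHA1, PCDHA10, PCDHA11 and PCDHAC1 rose, where 12.6% of all features tested passed in either direction and 11.3% passed as higher. The other 11 alpha genes had limma adjusted p-values up to 0.0523, so those that passed and those that did not were separated by very little. Both siCNOT4 libraries were above both siControl libraries for all 15, against 66.4% of all features tested. The 15 rows share nearly all of their reads, as given below, so neither count is one of independent genes. In RNA from whole cultures, a change in the number of expressing cells and a change in RNA per cell cannot be told apart.

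Among the alpha genes that passed, PCDHA10 changed most. It was at 4.73 and 3.30 TPM in siControl and at 11.1 and 11.1 TPM in siCNOT4, with no overlap between the groups. The means were 4.01 ± 1.01 and 11.1 ± 0.0299 TPM (SD, n = 2 each), a ratio of 2.77, and the log2 change was 1.29 (SE 0.28, limma adjusted p = 0.0436). PCDHAC1, a C-type gene near the end of the alpha array, was at 4.06 and 2.91 TPM in siControl and 8.76 and 8.86 TPM in siCNOT4, which is a log2 change of 1.14 (SE 0.27, limma adjusted p = 0.0475). PCDHA1, the first gene of the array, was at 4.36 and 3.19 against 9.21 and 9.17 TPM, a log2 change of 1.11 (SE 0.27, limma adjusted p = 0.0497). PCDHA11 was at 3.89 and 2.82 against 8.27 and 8.19 TPM, a log2 change of 1.10 (SE 0.27, limma adjusted p = 0.0492). Both siCNOT4 libraries were well above both siControl libraries in each of the 4 genes.

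PCDHAC2, the other C-type alpha gene, had the highest mean level of the array over all libraries but did not pass. It was at 5.92 and 3.23 TPM in siControl and at 12.5 and 12.0 TPM in siCNOT4. The groups did not overlap, and the larger gap between its siControl libraries went with a standard error of 0.33 around a log2 change of 1.29 (limma adjusted p = 0.0522). PCDHA13 was at 4.53 and 3.28 TPM in siControl and at 9.57 and 9.40 TPM in siCNOT4, a log2 change of 1.11 (SE 0.28, limma adjusted p = 0.0503).

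The number of alpha genes that passed depended on single libraries while their direction did not. All 15 were called higher without siControl replicate 1 and all 15 without siControl replicate 2, and 0 were called without siCNOT4 replicate 1 or without siCNOT4 replicate 2, where PCDHA10 had a limma adjusted p of 0.379 and 0.377. Over all features, the share called was 79.6% and 57.5% without the first and second siControl library and 3.4% and 3.2% without the first and second siCNOT4 library. The alpha median log2 change lay between 0.90 and 1.26 over these 4 fits. Scaling by TMM, which moves the median of all features from 0.50 to -0.04, left an alpha median of 0.57 and 1 call.

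These 15 values are close to 1 measurement repeated. In recovered reads, the alpha gene with the fewest reads had 307 and 254 in siControl and 601 and 589 in siCNOT4, and for the median alpha gene this number was 99.7%, 99.6%, 99.3% and 98.7% of all its reads in siControl replicates 1 and 2 and siCNOT4 replicates 1 and 2. The 6 genes from PCDHA4 to PCDHA9 had the same ratio of siControl replicate 1 to replicate 2 to 5 decimals, 1.37200. PCDHA7 had exactly the lowest number of reads of the array in every library, and PCDHA9 was within 2 reads of it. The alpha genes therefore share nearly all of their reads in these tables, and the setting by which reads in shared exons were counted is not given in the sources used here.

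Reads beyond those of the lowest gene of the cluster are a minimum of a gene's own reads, and over the alpha array they summed to 209 and 52 in siControl and to 614 and 599 in siCNOT4. PCDHAC2 held 163 and 37 of them in siControl and 346 and 305 in siCNOT4. PCDHA10 held 24 and 8 in siControl and 138 and 144 in siCNOT4. Together PCDHAC2 and PCDHA10 made up 89.5% and 86.5% of these reads in siControl and 78.8% and 75.0% in siCNOT4. The next genes were PCDHAC1, with 6 and 1 against 42 and 54 reads, and PCDHA11, with 3 and 1 against 27 and 26 reads. PCDHA13 had 4 and 1 against 24 and 18 reads, and PCDHA1 had 0 and 1 against 17 and 19 reads. For 11 of the 15 genes both siCNOT4 libraries had more such reads than both siControl libraries, and the other 4, PCDHA3, PCDHA4, PCDHA6 and PCDHA7, overlapped. In TPM that order held for 66.4% of all features tested, and these reads are not scaled to library totals. Several of the 11 rest on a few reads, such as PCDHA9 with 0 and 0 against 2 and 1.

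**Figure D2:**
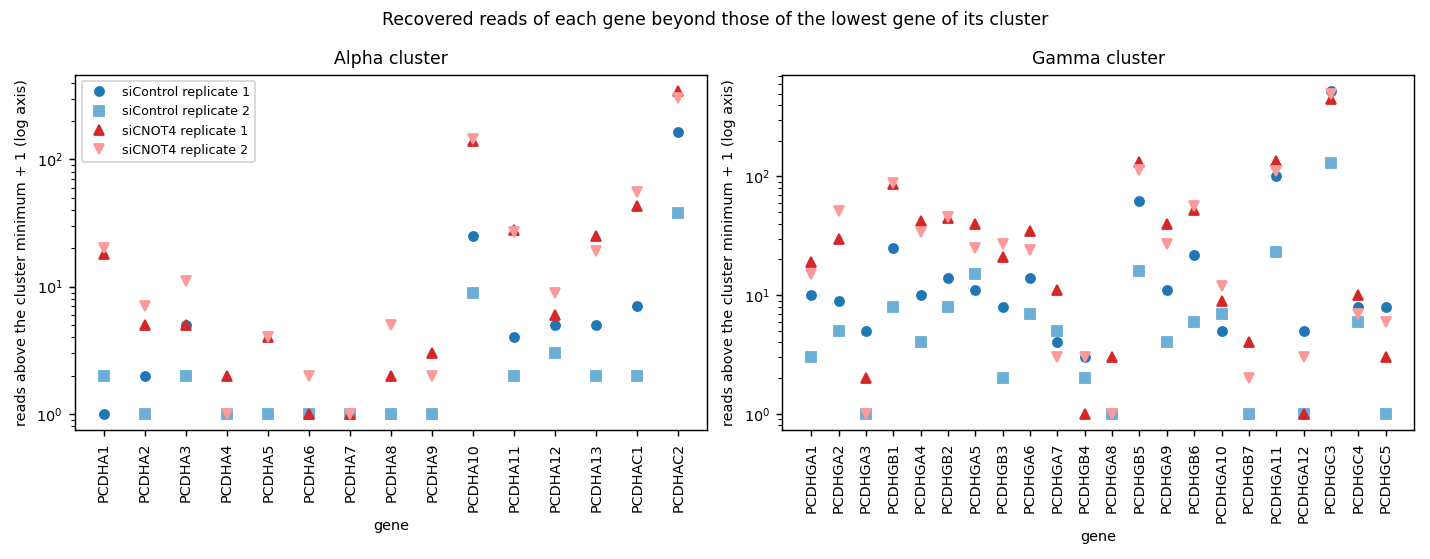
Recovered reads of each alpha gene (left) and gamma gene (right) beyond those of the gene with the fewest reads in its cluster, plus 1, on a log axis, by library. PCDHAC2 and PCDHA10 lead the alpha array, with both siCNOT4 libraries higher, and PCDHGC3, the highest in the gamma array, overlaps between the groups at 527 and 130 reads in siControl and 450 and 495 in siCNOT4.

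Beta genes do not share exons, so each is its own measurement, but they are close copies of each other and reads that fit several copies may have been left out or split. They were low. Their summed TPM was 3.77 and 1.68 in siControl against 8.09 and 7.85 in siCNOT4, on 139, 71, 292 and 276 reads in siControl replicates 1 and 2 and siCNOT4 replicates 1 and 2. Both siCNOT4 libraries were above both siControl libraries for 13 of the 16 beta genes, where this held for 62.5% of all features above 0 in at least 1 library. The other 3, PCDHB1, PCDHB4 and PCDHB12, overlapped, and no beta gene was lower in both siCNOT4 libraries. PCDHB7 is among the 13 with the reads given above.

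PCDHB2 was the only beta gene with a mean of at least 1 TPM and so the only one tested. It was at 2.15 and 0.922 TPM in siControl and at 4.25 and 4.21 TPM in siCNOT4, on 76, 37, 143 and 140 reads. Both siCNOT4 libraries lay above both siControl libraries, but the siControl libraries stood far apart. The means were 1.54 ± 0.868 and 4.23 ± 0.0276 TPM (SD, n = 2 each), and the log2 change of 1.09 (SE 0.29) did not pass the test (limma adjusted p = 0.0562).

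PCDHB5, the next beta gene by mean level, was at 0.266 and 0.140 TPM in siControl and at 0.809 and 0.932 TPM in siCNOT4, on 10, 6, 29 and 33 reads. The groups did not overlap and the ratio of means was 4.29. In the fit without a filter on low values its log2(TPM + 1) change was 0.64 (limma adjusted p = 0.0474). PCDHB15 was at 0.320 and 0.256 TPM in siControl and at 0.519 and 0.618 TPM in siCNOT4, again without overlap, on 11, 10, 17 and 20 reads. The remaining 13 beta genes had at most 17 reads in any library.

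Gamma genes had the highest levels of the clustered genes by mean TPM over all libraries, and none of the 19 passed the test. Their summed TPM was 299.2 and 172 in siControl against 199.8 and 225.9 in siCNOT4, so both siCNOT4 libraries lay between the siControl libraries. This was so for each of the 19 genes, and limma adjusted p-values ran from 0.746 to 0.997. None had an unadjusted p under 0.05, while 15 of the 15 alpha genes and 42.0% of all features tested did. Log2 fold changes ran from -0.15 to 0.04 around a median of -0.10, a difference of -0.60 from the median of all features.

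PCDHGB5 was at 16.95 and 9.45 TPM in siControl and at 12.5 and 13.65 TPM in siCNOT4, with overlap and a log2 change of 0.04 (SE 0.34, limma adjusted p = 0.938). PCDHGB1 was at 16.4 and 9.39 TPM in siControl and at 11.7 and 13.3 TPM in siCNOT4, a log2 change of 0.00 (SE 0.34, limma adjusted p = 0.997). PCDHGB6 was at 16.3 and 9.30 against 11.1 and 12.6 TPM. The lowest log2 changes were those of PCDHGA3, PCDHGB4 and PCDHGA12, at -0.15 each. The siControl libraries differed by a median of 0.73 on the log2 scale over the gamma genes, compared with 0.36 over the alpha genes.

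Which siControl library was used decided the sign for gamma. Without siControl replicate 1 the gamma median log2 change was 0.26, beside 0.71 over all features tested. Without siControl replicate 2 the gamma median was -0.47, beside 0.29 over all features tested. Scaling by TMM gave a median of -0.66 and quantile normalization -0.70, with 16 gamma genes called lower under the second. Under quantile normalization 15.3% of all features tested were called in either direction. No direction can be given for the gamma array from these libraries.

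Recovered reads separated the common end of the gamma array from the reads of single genes. The gamma gene with the fewest reads had 958 and 630 in siControl and 583 and 659 in siCNOT4, or 41.5 and 30.2 per 1000000 recovered reads in siControl and 23.4 and 26.5 in siCNOT4. On that scale the siCNOT4 libraries were both lower than the siControl libraries, but the unscaled reads overlapped. The lowest TPM in the array overlapped too, at 13.04 and 7.56 in siControl and 8.36 and 9.53 in siCNOT4 (PCDHGA8). The totals used for scaling are minimum estimates and the share of all features in this order on that scale was not counted, so no direction is taken from it. Reads above those of the lowest gene, summed over all 22 gamma genes, were 843 and 235 in siControl and 1152 and 1130 in siCNOT4, with both siCNOT4 libraries higher. Against 100 reads of the lowest gene they came to 88.0 and 37.3 in siControl and to 197.6 and 171.5 in siCNOT4. In the alpha array the same ratio was 68.1 and 20.5 in siControl against 102.2 and 101.7 in siCNOT4. A gene's own exon is at the 5′ end of its transcript and the constant exons are at the 3′ end, so this ratio also compares coverage of the transcript ends, and the part of that in the result was not tested.

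PCDHGC3, the C-type gene with the highest level in the gamma array, held 62.5% and 55.3% of the gamma reads above the minimum in siControl and 39.1% and 43.8% in siCNOT4. Its own 527 and 130 reads in siControl and 450 and 495 in siCNOT4 overlapped. Its TPM of 23.03 and 10.4 in siControl and 16.8 and 19.0 in siCNOT4 overlapped as well, with a log2 change of 0.19 (SE 0.39, limma adjusted p = 0.72). PCDHGC4 and PCDHGC5 each had 9 or fewer reads above the minimum in every library and a log2 change of -0.14. With PCDHGC3 left out, the gamma reads above the minimum were 316 and 105 in siControl and 702 and 635 in siCNOT4, or 33.0 and 16.7 against 120.4 and 96.4 per 100 reads of the lowest gene.

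For 14 of the 22 gamma genes both siCNOT4 libraries had more reads above the minimum than both siControl libraries, and the other 8 overlapped. In TPM that order held for 66.4% of all features tested, so the count was near that share. The reads are not scaled to library totals. PCDHGB5 had 61 and 15 in siControl and 132 and 113 in siCNOT4. PCDHGB1 had 24 and 7 against 85 and 87 reads. PCDHGA11 had 100 and 22 against 135 and 110 reads, a small gap beside the spread of its siControl libraries. PCDHGB6 had 21 and 5 against 51 and 55 reads, and PCDHGB2 had 13 and 7 against 44 and 45. PCDHGA2 and PCDHGA4 also did not overlap, with 8 and 4 against 29 and 50 reads for PCDHGA2 and 9 and 3 against 41 and 33 for PCDHGA4. At the other end, PCDHGA8 had 0 reads above the minimum in every library but siCNOT4 replicate 1, where it had 2. PCDHGB7 is counted among the 14 on 0 and 0 against 3 and 1 reads.

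**Figure D3:**
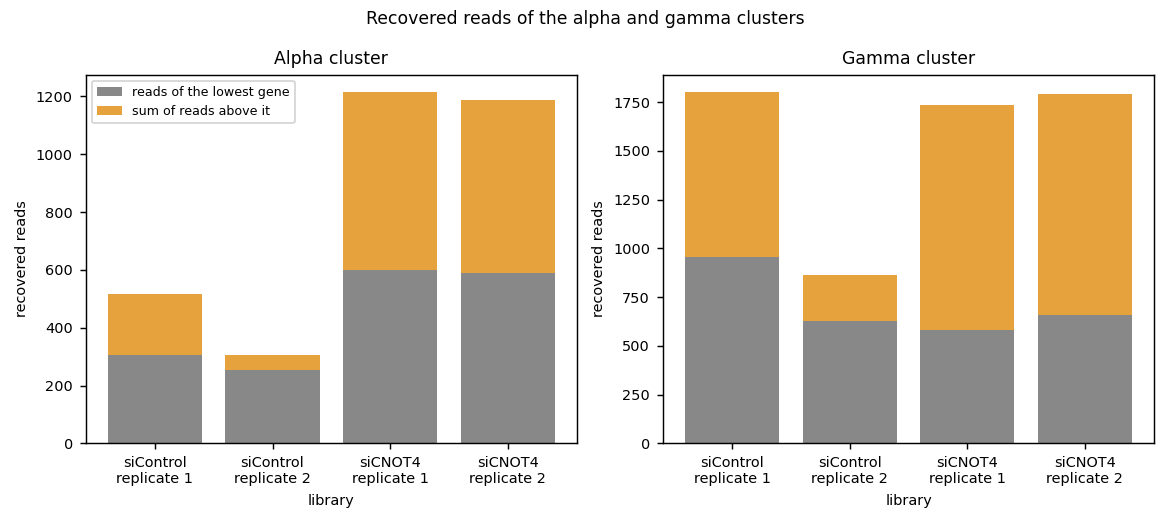
Recovered reads of the alpha cluster (left, 15 genes) and the gamma cluster (right, 22 genes) in each library, as stacked bars of the reads of the lowest gene (grey) and the summed reads of the other genes above it (orange). Both alpha portions are higher in siCNOT4, whereas in the gamma cluster only the orange portion is, at 1152 and 1130 reads against 843 and 235.

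With the lowest gene's reads and the reads above it added, so that shared reads count once, the alpha cluster had 516 and 306 reads in siControl and 1215 and 1188 in siCNOT4. Scaled per 1000000 recovered reads, this was 22.4 and 14.7 in siControl against 48.7 and 47.8 in siCNOT4. The gamma cluster had 1801 and 865 reads in siControl and 1735 and 1789 in siCNOT4, or 78.1 and 41.5 against 69.5 and 72.0 on the same scale. Alpha reads per 100 gamma reads were thus 28.7 and 35.4 in siControl and 70.0 and 66.4 in siCNOT4, without overlap. Of the reads above the minimum alone, the alpha cluster had 24.8 and 22.1 per 100 gamma reads in siControl and 53.3 and 53.0 in siCNOT4. The siControl libraries lay closer together on these ratios than in each cluster's own values. The difference between the clusters is given as a description, without a test.

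Of the non-clustered genes, 1 of the 7 tested passed, PCDH1, beside 12.6% of all features tested. Their summed TPM was 45.7 and 20.5 in siControl against 76.65 and 78.1 in siCNOT4. The 7 log2 fold changes ran from 0.04 to 1.38 around a median of 1.17, which is 0.67 above the median of all features. Of the 7, 6 had an unadjusted p under 0.05, as 42.0% of all features tested did. The same 6 had both siCNOT4 libraries above both siControl libraries, an order found for 66.4% of all features tested. Over all 12 members that order held for 9, beside 62.5% of all features above 0 in at least 1 library. The siControl libraries differed by a median log2 of 0.92 over these genes, more than over the alpha genes or all features.

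Of the delta-1 genes, whose products have long ectodomains, PCDH1 was the one that passed. It was at 2.30 and 1.20 TPM in siControl and at 4.76 and 5.40 TPM in siCNOT4, on 159, 94, 314 and 352 reads. The groups did not overlap, with means of 1.75 ± 0.778 and 5.08 ± 0.453 TPM (SD, n = 2 each), a ratio of 2.91 and a log2 change of 1.17 (SE 0.28, limma adjusted p = 0.0473). PCDH1 was not called without siCNOT4 replicate 1 or without siCNOT4 replicate 2 (limma adjusted p = 0.188 and 0.26), nor with TMM scaling (0.0623). PCDH9 had the largest log2 change of the members tested, 1.38 (SE 0.39), and did not pass (limma adjusted p = 0.0612). It was at 5.61 and 2.27 TPM in siControl and at 12.0 and 10.2 TPM in siCNOT4. PCDH7 was at 12.6 and 5.46 TPM in siControl and at 16.9 and 18.2 TPM in siCNOT4, with a log2 change of 0.98 (SE 0.40, limma adjusted p = 0.116). For both genes siControl replicate 1 was more than siControl replicate 2 by a wide margin, without reaching the siCNOT4 libraries. PCDH11X, the X-linked delta-1 gene, had 3, 2, 6 and 8 reads.

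Of the delta-2 genes, PCDH10 had the highest level of all non-clustered members. It was at 13.8 and 6.86 TPM in siControl and at 24.7 and 27.0 TPM in siCNOT4, without overlap, and its log2 change of 1.32 (SE 0.36) did not pass (limma adjusted p = 0.0584). PCDH17 was at 2.59 and 0.823 TPM in siControl and at 3.70 and 3.88 TPM in siCNOT4, a log2 change of 0.90 (SE 0.34, limma adjusted p = 0.103). PCDH18, a related gene, was at 3.07 and 1.24 TPM in siControl and at 2.20 and 2.04 TPM in siCNOT4, with overlap and a log2 change of 0.04 (SE 0.31, limma adjusted p = 0.918). PCDH8 overlapped too, at 1.06 and 0.628 TPM in siControl and 0.708 and 0.656 TPM in siCNOT4.

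PCDH19, a delta-2 gene on the X chromosome known for its role in an inherited epilepsy, fell below the filter of 1 TPM and was singled out after its values were seen. It was at 0.158 and 0.0766 TPM in siControl and at 1.41 and 1.61 TPM in siCNOT4, on 20, 11, 170 and 191 reads. The 2 groups were far apart, with means of 0.117 ± 0.0577 and 1.51 ± 0.137 TPM (SD, n = 2 each) and a ratio of 12.8. In the fit without the filter its log2(TPM + 1) change was 1.17 (SE 0.09, limma adjusted p = 0.0441), which understates the ratio of so low a gene.

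PCDH15, which forms part of the tip link of sensory hair cells, was likewise singled out afterwards. It was at 0.0372 and 0.0218 TPM in siControl and at 0.267 and 0.296 TPM in siCNOT4, on 6, 4, 41 and 45 reads, without overlap. Without the filter its log2(TPM + 1) change was 0.32 (limma adjusted p = 0.0469). PCDH20, which has been placed near the delta genes, was at 4.51 and 1.91 TPM in siControl and at 9.92 and 8.70 TPM in siCNOT4. Its log2 change of 1.36 (SE 0.36) did not pass (limma adjusted p = 0.0566), and its groups did not overlap.

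**Figure D4:**
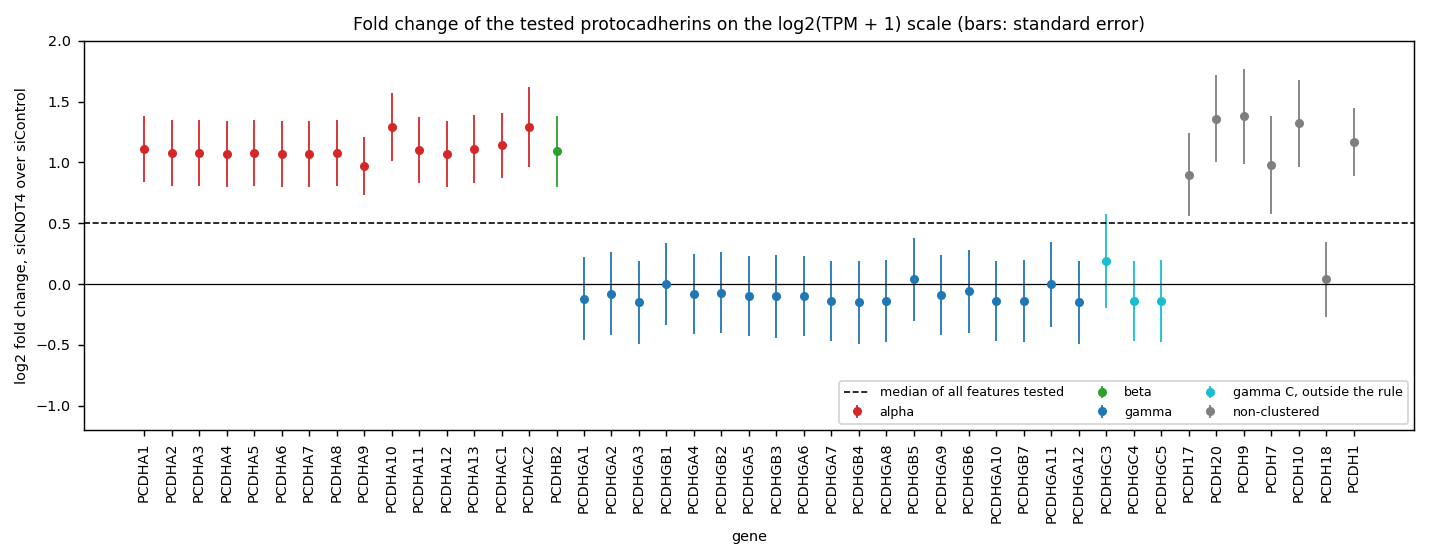
Log2 fold change of siCNOT4 over siControl on the log2(TPM + 1) scale, with standard errors as bars, for the 42 members tested and the 3 C-type gamma genes, with the median of all features tested, 0.50, as a dashed line. The alpha genes, PCDHB2 and 6 of the 7 non-clustered genes lie above the dashed line, and the gamma genes and PCDH18 lie below it near 0.

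Clustered and non-clustered genes can be set side by side only by array, since the clustered median of 0.00 over 35 genes joins 15 alpha genes around 1.08 with 19 gamma genes around -0.10. In total 5 of the 42 members tested passed, all higher, where 11.3% of all features tested passed as higher, so the share of members called was near that of all features. An unadjusted p under 0.05 was found for 22 of the 42 and for 42.0% of all features tested. The beta and non-clustered genes, which share no constant exons, both had higher sums in siCNOT4. Summed beta TPM per 100 of summed non-clustered TPM was 8.2 and 8.2 in siControl against 10.6 and 10.1 in siCNOT4. Over all 62 members, 37 had both siCNOT4 libraries above both siControl libraries, 25 overlapped and none had both below, while both were above for 62.5% of all features above 0 in at least 1 library. As most of the 25 are gamma rows that share reads, and 15 of the 37 are alpha rows that share reads, these are not counts of independent genes.

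Genes for proteins that act on or with protocadherins were read against the 12.6% of all features tested that passed. Of 10 CTCF and cohesin genes tested, none passed, with a median log2 change of 0.71. CTCF, the insulator protein bound at clustered promoters, was at 49.7 and 32.5 TPM in siControl and at 55.3 and 59.9 TPM in siCNOT4 (log2 change 0.51, limma adjusted p = 0.168). RAD21, a cohesin subunit, was at 277 and 142 against 316 and 287 TPM (log2 change 0.60, limma adjusted p = 0.176). None of 8 genes for chromatin silencing of the clusters and none of 11 genes for the WAVE complex and the kinases bound by protocadherin tails passed, with medians of 0.68 and 0.69. Of 7 proteases that shed protocadherins and release their tails, APH1B, a gamma-secretase subunit, rose from 7.01 and 3.47 TPM to 16.8 and 16.3 TPM (log2 change 1.55, SE 0.36, limma adjusted p = 0.0453), a call lost without siCNOT4 replicate 1 (0.312) or replicate 2 (0.294). The list medians stand beside 0.50 for all features. With TMM scaling CTCF was at -0.08 and RAD21 at -0.00, so no direction is given for them.

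Among other cadherins, CDH1, which encodes E-cadherin, was 1 of 5 classical cadherins tested and rose from 1.17 and 0.635 TPM to 6.02 and 6.03 TPM (log2 change 1.90, SE 0.24, limma adjusted p = 0.0227). DCHS1, a large cadherin that binds FAT4, was 1 of 7 large relatives tested and rose from 2.08 and 0.803 TPM to 4.45 and 4.68 TPM (log2 change 1.24, SE 0.30, limma adjusted p = 0.0491), a call lost without siCNOT4 replicate 1 (0.123) or replicate 2 (0.145). The siControl mean of CDH1 was under the 1 TPM needed for testing, which it reached through the siCNOT4 libraries. No other gene of either list passed.

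Markers of other cell types moved with the protocadherins in part. The 6 mature neuron markers summed to 21.3 and 16.5 TPM in siControl and to 33.0 and 35.3 TPM in siCNOT4. The 5 tested had a median log2 change of 0.71, beside 0.50 for all features. Of these SLC17A7 rose, from 0.130 and 0.206 TPM to 2.42 and 2.26 TPM. SNAP25 overlapped, at 5.58 and 4.44 TPM in siControl and 3.88 and 4.76 TPM in siCNOT4 (log2 change -0.18). The 4 fibroblast markers summed to 1.62 and 1.13 TPM in siControl and to 9.08 and 9.49 TPM in siCNOT4, with COL1A1 and LUM higher. COL1A2 stayed near 0, at 0.0143 and 0 TPM in siControl and 0.0150 and 0.0152 TPM in siCNOT4. SLC17A7 and LUM reached the mean of 1 TPM needed for testing only through the siCNOT4 libraries, so their calls add nothing beyond these values. Of the HEK293 markers VIM fell (log2 change -1.09, limma adjusted p = 0.0288) and INA, a neuronal intermediate filament gene, rose (log2 change 1.32, limma adjusted p = 0.0496), though not without siCNOT4 replicate 1 (0.38) or replicate 2 (0.435). The 4 of 6 mature kidney markers in the tables stayed under 1 TPM in sum in each library but were higher in siCNOT4. They summed to 0.169 and 0.097 TPM in siControl and to 0.689 and 0.892 TPM in siCNOT4. Blood cell markers summed to 0.0706 and 0 TPM in siControl and to 0.151 and 0.453 TPM in siCNOT4. No listed gene in the tables was at 0 in all libraries. The part of these shifts in the protocadherin values was not tested.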

How the data were processed

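Polyadenylated RNA of 4 HEK293 libraries was sequenced from stranded preparations, per the labels' protocols. The submitters' processing notes name FastQC 0.11.2, STAR 2.5.3a, featureCounts and hg19. The authors deposited TPM per feature; the counting settings are not given in the sources used here. Members and gene lists were chosen with earlier results of these data known. In each library, log2(TPM + 1) of 14208 features with a mean of at least 1 TPM was tested with limma 3.58.1 (lmFit, eBayes with trend, R 4.3.3) and Benjamini-Hochberg adjustment at 0.05, with 2 libraries a group. The fitting code was tested on simulated data.

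TPM is reads divided by length and scaled per library, so ratios between low values gave the worth of 1 read. Of low-value ratios divided by this worth, 99.1%, 100.0% and 99.8% were ratios of small whole numbers in the libraries after siControl replicate 1. Whole reads were taken as the smallest numbers that fit each gene's ratios within 0.001 of a read, with a wider tolerance for genes with many reads. Such numbers can miss a common factor, which was set for members so that the implied length reached 0.95 of the longest GENCODE 29 coding sequence. This changed 4 members (PCDHB1, PCDHB12, PCDHGB7, PCDH10), and the implied length was at the median 1.01 times GENCODE's. Read totals are thus minimum estimates. Alternatives were another pseudocount, filter or scaling, each library left out, a replicate block and, chosen after seeing the data, limma voom on recovered reads. Genes named in full were the called members, the 3 most abundant of each class, the 3 highest and 3 lowest changes, CNOT4, the C-type gamma genes and called or listed pathway genes; PCDH8, PCDH11X, PCDH12, PCDH15, PCDH17, PCDH18, PCDH19 and single genes of the read counts were added after their values were seen. Genome coordinates are from GRCh38 annotations, not from the authors' build.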

Additional observations from a re-analysis of the deposited data

How the results depend on the processing

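The number of protocadherins called depended strongly on the processing: 5 in all, 4 clustered and 1 non-clustered became 0, 0 and 0 with a pseudocount of 0.1 or a filter of 5 TPM, 3, 1 and 2 without a filter, 1, 1 and 0 with TMM scaling, 19, 18 and 1 with quantile normalization, 17, 14 and 3 with a trend in length and GC removed, and 17, 15 and 2 with voom on recovered reads, an alternative chosen after seeing the data. Of the 19 under quantile normalization 16 were lower, all gamma. The share of all features called moved too, from 12.6% to 3.9% with the pseudocount of 0.1 and 1.3% with the filter of 5 TPM. That share was 4.6% without a filter, 9.9% with TMM scaling and 15.3% with quantile normalization. With the trend removed it was 24.3%, and with voom 13.6%. Leaving out 1 library gave 0 to 40 calls in all, 0 to 35 clustered and 0 to 7 non-clustered; a group left with 1 library is assumed to vary like the other. The calls with 1 library left out were not all rises. Without siControl replicate 2, clustered genes were called in both directions, with median log2 changes of 0.90 for alpha and -0.47 for gamma. Without siControl replicate 1 these medians were 1.26 and 0.26, and every member called was higher. With the replicate number as a block, calls were 11, 6 and 5, and 25.7% of all features were called instead of 12.6%. Same-numbered libraries deviated together only weakly (r = 0.171 over 14208 features), and 2 pairs do not show that the numbers pair the libraries.

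The clustered median log2 change, 0.00, moved to -0.55 with TMM and -0.60 with quantile normalization, and lay between -0.37 and 0.41 with 1 library left out. The non-clustered median, 1.17, moved to 0.54 with quantile normalization and 0.70 with the trend removed. The alpha median moved to 0.57 with TMM and 0.44 with quantile normalization, and the gamma median to -0.66 and -0.70. Of 319 alternatives over 27 single genes, 200 kept direction and side of the threshold, 52 newly passed, 44 no longer passed and 23 changed sign. The sign changed for CTCF (-0.08) and RAD21 (-0.00) with TMM; for PCDHGB1 (-0.55, -0.60, -0.35), PCDHGB5 (-0.52, -0.56, -0.31) and PCDHGC3 (-0.37, -0.39, -0.14) with TMM, quantile normalization and voom. With 1 library left out, PCDHGB1 ranged from -0.37 to 0.38, PCDHGB5 from -0.35 to 0.43, PCDHGC3 from -0.35 to 0.73, PCDHGB6 from -0.43 to 0.32, PCDHGC4 from -0.50 to 0.22, and PCDHGA12, PCDHGA3, PCDHGB4 and PCDHGC5 from -0.51 to 0.22. The cause was not tested.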
